A study of Homo sapiens with 27 samples.

Results

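The 3 total RNA libraries of U2OS cells that received the shRNA TPR A were compared with the 3 total RNA libraries of cells that received a scrambled control shRNA, to find which mRNAs and long non-coding RNAs (lncRNAs) changed in amount when TPR was depleted, before any separation of nucleus and cytoplasm. These are 6 of the 27 libraries of an RNA Frac-Seq series, and they were taken by their labels alone. Of 34464 genes in the deposited table, 14611 lay outside the mitochondrial genome and had a mean over all libraries above 1 FPKM (fragments scaled by transcript length and library size), and these genes were compared. Of these, 12381 are protein-coding, 1689 are lncRNA genes and 410 could not be matched to the gene annotation used.

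U2OS is a human osteosarcoma cell line. All cells carried a lentiviral shRNA for 5 days and were selected with puromycin, the control cells included. TPR A and TPR D are different shRNAs against the same mRNA, and both were set against the same control cultures. Each of the 3 shRNAs had 3 replicate cultures, and each culture yielded nuclear, cytoplasmic/ER and total RNA, the last from a portion of whole cells set aside before detergent was added. Poly(A)+ RNA was sequenced from each. TPR A stands for 1 shRNA sequence in 1 cell line, so an effect of that sequence on RNAs other than TPR cannot be told apart from an effect of TPR loss without a second shRNA, and the values under TPR D are given for that reason. In bulk RNA a smaller share of cells in some state and less RNA per cell cannot be told apart either.

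TPR is a long coiled-coil protein and the main filament-forming component of the nuclear basket, the structure on the nucleoplasmic face of the nuclear pore. It docks factors of mRNA export, of chromatin and of the mitotic checkpoint at the pore. Total RNA does not report export, since an RNA held in the nucleus and one delivered to the cytoplasm count alike.

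Of genes expressed in the osteoblast lineage, not all of them particular to it, 4 are given first. RUNX2 (7.85 to 22.7 FPKM), SPARC (391 to 560 FPKM), COL1A1 (31.1 to 58.5 FPKM) and VIM (1063 to 2500 FPKM) were expressed in all 6 libraries. Other genes of that lineage, SP7, BGLAP, IBSP, COL1A2 and TWIST1, were below 0.5 FPKM in each of them. ALB, CD3E, VWF and GFAP, markers of other cell types, were also below 0.5 FPKM, while the epithelial gene EPCAM lay between 2.96 and 5.58 FPKM and the neuronal gene RBFOX3 between 1.01 and 3.52 FPKM in all 6 libraries. CDH1, another epithelial gene, reached 1.67 FPKM and was above 1 FPKM in 2 libraries, and the leukocyte gene PTPRC reached 1.22 FPKM.

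One control library went against its label. In the library labelled control total replicate 2 the mitochondrial genes gave 0.738% of the FPKM, against 15.8% to 24.7% in the other 8 total libraries and 0.774% to 2.42% in the nuclear libraries other than control replicate 2. The library labelled nuclear from that same culture had 21.8%. The library labelled control total replicate 2 correlated more closely with the mean of the nuclear libraries (r = 0.973 across genes, which are not independent replicates) than with that of the total libraries (r = 0.940). The labels were kept, and the main results are therefore given also without the culture labelled control replicate 2 where that changes a call or moves a value by over 1.5 times. Depth also differed, since 1 FPKM on 1 kb of transcript stood for 41.4 to 58.8 reads in the control libraries and for 60.6 to 89.9 reads in the TPR A libraries. Its part in the results was not tested.

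TPR (GRCh37 chr1:186280784-186344825, minus strand) had the largest fall among the genes called. Its level was 28.2, 25.7 and 25.3 FPKM in control replicates 1, 2 and 3 and 4.36, 3.44 and 4.70 FPKM in the TPR A replicates. The means were 26.4 ± 1.57 FPKM (SD, n = 3) and 4.17 ± 0.654 FPKM (SD, n = 3). The groups did not overlap, and the log2 difference of -2.58 ± 0.36 (SE), a 6.0-fold fall, had a limma adjusted p of 0.00120. Without the culture control replicate 2 the log2 difference was -2.64 (limma adjusted p = 0.00789). An exact permutation test over these 6 values (2-sided) gave p = 0.1, the smallest that 3 against 3 allows. TPR D lowered TPR to 4.66 ± 1.39 FPKM (SD, n = 3), and the test between the shRNAs did not pass (TPR A minus TPR D, log2 difference -0.14 ± 0.36, SE, limma adjusted p = 0.999). The other nuclear basket and spindle checkpoint genes of the same list did not pass the threshold: of 8 genes listed and tested, TPR was the only call, and the list had a median log2 difference of -0.11 with 3 genes above 0.

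Of the 14611 genes, 120 (0.821%) passed a limma adjusted p of 0.05, 79 of them higher in TPR A cells (0.541%) and 41 lower (0.281%). The rises had log2 differences of 0.61 to 3.32 (median 1.42) and the falls of -2.58 to -0.67 (median -1.19). The genes that rose were of lower abundance, with a median of 4.55 FPKM over the 6 libraries, than the genes that fell, with 17.5 FPKM. All 41 falls were in protein-coding genes, while the rises were in 60 protein-coding genes, 15 lncRNA genes and 4 unmatched or other genes. In each of the 120 the 3 TPR A libraries lay on 1 side of the 3 control libraries. A lack of overlap thus sets no called gene apart. Such a gene keeps its sign when 1 control is left out. Each of the 120 did so without the culture control replicate 2, which is therefore no check of the calls.

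Without that culture 41 genes were called (0.281%), 25 higher and 16 lower, and 31 of them were among the 120. These 31 genes, 19 higher and 12 lower, carry most of the description that follows. In a paired fit, where equally numbered cultures formed a block, 378 genes were called (2.59%), and all of the 120 were among them. Of the 378, 229 were higher (1.57% of all genes) and 149 lower (1.02%). The number of calls depended on single cultures. It was 36, 41 and 168 without control replicates 1, 2 and 3, and 15, 4 and 44 without TPR A replicates 1, 2 and 3. Scaling moved the balance of directions: without rescaling of the deposited values 60 genes were higher and 61 lower, and with quantile normalization 103 were higher and 96 lower. Replicate 1 is labelled differently from replicates 2 and 3, and whether they were separate sets was not tested. Within replicates 2 and 3 alone, where each group has 2 libraries, 1 gene was called, and for replicate 1 alone only differences can be given. With the 6 compared libraries alone 1 gene was called, and with the 9 total libraries alone 2. Most calls thus rest on a spread estimated also from the nuclear and cytoplasmic/ER libraries.

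**Figure D1:**
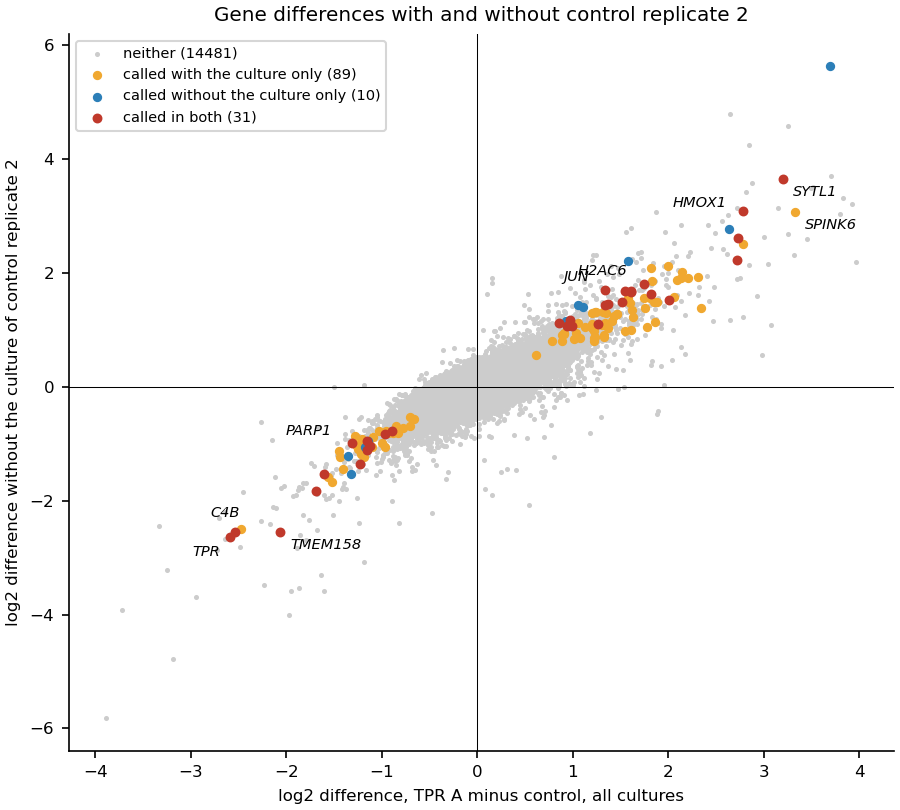
Each point is a gene, with the log2 difference between TPR A and control total RNA over all cultures on the x axis and the same without the culture labelled control replicate 2 on the y axis. The 31 genes called in both lie near the diagonal at both ends, and 89 further genes passed the threshold only with that culture, 10 only without it.

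Among genes called in both, HMOX1 had one of the largest rises and the highest final level. HMOX1 encodes haem oxygenase 1, the inducible enzyme that breaks down haem. It measured 27.1, 58.4 and 31.5 FPKM in the control libraries and 177, 251 and 328 FPKM in the TPR A libraries, so that the lowest TPR A value was about 3 times the highest control value. The log2 difference was 2.79 ± 0.36 (SE, limma adjusted p = 0.000731), and 3.09 without the culture control replicate 2 (limma adjusted p = 0.000457). Within replicate numbers the differences were 2.75, 2.23 and 3.39. The control library labelled replicate 2 was the highest of the 3 controls.

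Other genes regulated by NRF2 or involved in haem and iron handling did not follow HMOX1 as a group. Of 34 genes listed, 30 were tested. HMOX1 was the only call, 12 had differences above 0, and the median was -0.08 (-0.04 without the culture control replicate 2), against -0.01 over all genes. At an unadjusted p of 0.05, 3 of the 30 were higher and 2 lower, where 6.8% of all genes were higher and 5.84% lower at that level. The ferritin heavy chain gene FTH1 (log2 difference 1.19, limma adjusted p = 0.119) had groups that did not overlap but missed the adjusted threshold, and its difference was 0.64 without the culture control replicate 2 (limma adjusted p = 0.417). FTL, the ferritin light chain gene, had a difference of 0.39 (limma adjusted p = 0.687), and PRDX1, a peroxiredoxin gene, one of -0.52 (limma adjusted p = 0.494). These turned to -0.04 for FTL and shrank to -0.09 for PRDX1 without that culture.

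SYTL1 and ENSG00000227136 were scarcely expressed in control cells and rose. SYTL1, a synaptotagmin-like protein of vesicle transport, went from 1.02, 2.25 and 0.571 FPKM to 6.70, 15.2 and 11.4 FPKM (log2 difference 3.20 ± 0.68, SE, limma adjusted p = 0.0292). The unmatched gene ENSG00000227136 went from 0.463, 0.403 and 0.541 FPKM to 3.62, 4.66 and 2.54 FPKM (2.73 ± 0.46, SE, limma adjusted p = 0.00577). ODAPH, a secreted phosphoprotein of tooth enamel, went from 10.2, 3.62 and 8.997 FPKM to 33.9, 62.9 and 41.2 FPKM (2.72 ± 0.48, SE, limma adjusted p = 0.00995). In each of these, as in every called gene, the TPR A values lay apart from all control values. IGFL3, of the insulin growth factor-like family, rose from 12.1 ± 5.51 to 44.4 ± 12.9 FPKM (SD, n = 3; log2 difference 2.003). LCTL, a lactase-like glycosidase gene, rose from 5.68 ± 1.18 to 19.6 ± 5.14 FPKM (SD, n = 3; log2 difference 1.82), and had the smallest limma adjusted p of the named genes, 0.000209. The remaining rises called in both were the lncRNA ENSG00000259727 and the protein-coding ZNF625, HRCT1, TRIML2 and RAP2B, with log2 differences of 1.26 to 1.61, and 4 genes with smaller rises, which are named after their values were seen: TSC22D3, LZTS1, ZHX2 and the unmatched ENSG00000104725.

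RBM15 and JUN, a regulator of mRNA methylation and a transcription factor, both rose. RBM15 guides the m6A methyltransferase complex to its RNA targets, and it measured 6.54, 8.13 and 4.85 FPKM in the control and 19.1, 19.7 and 15.4 FPKM in the TPR A libraries. Its log2 difference was 1.54 ± 0.21 (SE, limma adjusted p = 0.00120), and 1.58, 1.40 and 1.66 within the 3 replicate numbers. Of 16 listed writers, erasers and readers of m6A 15 were tested, and their median was 0.02. RBM15 was the only 1 called, where 0.541% of all genes were called higher, so further calls among 15 were not to be counted on. JUN, a subunit of the AP-1 transcription factor, measured 31.9, 68.0 and 27.7 FPKM in the control and 101, 106 and 81.3 FPKM in the TPR A libraries (1.34 ± 0.24, SE, limma adjusted p = 0.0111). Control replicate 2 was the highest control, and the JUN difference without its culture was 1.71.

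Of 35 immediate-early genes listed, which respond quickly to growth factors and stress, 31 were tested and 19 had positive differences, with a median of 0.15 (0.37 without the culture control replicate 2). JUN and EGR2 were called higher, where 0.541% of all genes were. EGR2, another transcription factor of this class, rose from 0.395 ± 0.103 to 1.92 ± 0.311 FPKM (SD, n = 3; log2 difference 2.09, limma adjusted p = 0.0492), and lost the call without that culture (1.88, limma adjusted p = 0.116). RHOB, a small GTPase gene, was called only without it (1.43, limma adjusted p = 0.0188, against 1.06 and 0.121 with it). The most abundant members, ID1, ZFP36L1 and ID3, had differences of -0.40, 0.67 and -0.35, and of 0.07, 0.37 and -0.05 without that culture, none of them called. FOSL2, an AP-1 partner with the lowest p among members not called and chosen after its value was seen, had a difference of 0.88 and was called with the replicate block (limma adjusted p = 0.0314, against 0.0579).

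In the list of replication-dependent histone genes each tested member had a positive difference. Their mRNAs are made in S phase and normally end in a stem-loop in place of a poly(A) tail, so that poly(A)+ libraries hold the polyadenylated part of them. Of 65 listed genes 28 were matched, and 22 of these passed the minimum. All 22 had positive differences, in this comparison and without the culture control replicate 2, with medians of 1.03 and 1.12. H2AC6, H2BC5 and H2BC4 were called, where 0.541% of all genes were called higher. At an unadjusted p of 0.05, 9 of the 22 were higher with the culture control replicate 2 and without it, where 6.8% and 4.69% of all genes were. With the replicate block 7 of the 22 were called higher, where 1.57% of all genes were. A minimum on the mean over all groups can favour genes high in one group. The remaining 6 matched genes were below it and were not examined.

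H2BC5, which encodes a core histone of the H2B family, measured 7.21, 11.4 and 11.6 FPKM in the control libraries and 31.5, 33.2 and 23.6 FPKM in the TPR A libraries (log2 difference 1.61 ± 0.23, SE, limma adjusted p = 0.00148). H2AC6, of the H2A family, measured 4.76, 6.26 and 5.48 FPKM and 15.9, 24.5 and 14.4 FPKM (1.75 ± 0.27, SE, limma adjusted p = 0.00310). H2BC4 measured 3.25, 2.50 and 2.60 FPKM and 7.30, 6.92 and 4.74 FPKM (1.20 ± 0.27, SE, limma adjusted p = 0.0372), and its call was lost without the culture control replicate 2 (1.10, limma adjusted p = 0.181). In all 3 genes TPR A replicate 3 was the lowest TPR A library. Over the 22 genes the median distance from the control mean was 1.40 in TPR A replicate 1, 1.24 in replicate 2 and 0.20 in replicate 3, and 0.15, 0.21 and -0.44 in control replicates 1, 2 and 3. Replicate 3 was the lowest in both groups, and within replicate numbers the median differences were 1.46, 0.81 and 0.63. The linker histone gene H1-1 was low and variable, with 0.708, 0.274 and 0.0973 FPKM in control and 2.65, 0.981 and 0.283 FPKM in TPR A libraries (log2 difference 1.47, limma adjusted p = 0.562). Histone genes are close copies of each other, and fragments that fit several of them were shared out by the quantification.

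**Figure D2:**
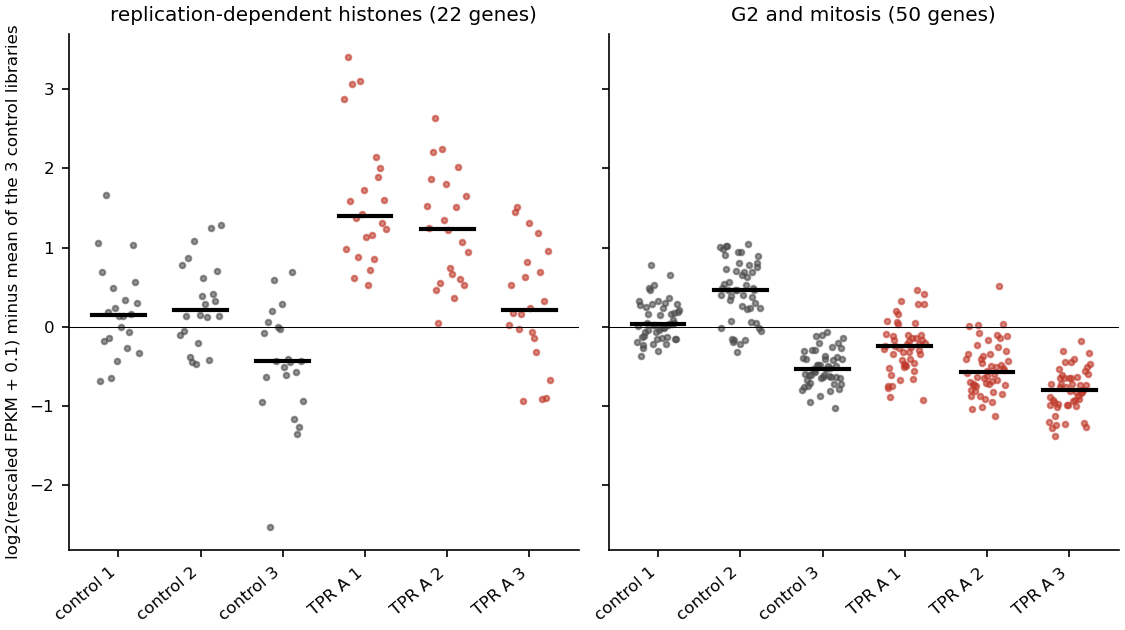
Each point is a gene of the list in 1 total RNA library, as log2(rescaled FPKM + 0.1) minus the gene's mean over the 3 control libraries, and the black bars are medians over genes. For the histone genes the medians of TPR A replicates 1 and 2 (1.40 and 1.24) lie above those of all control libraries and that of replicate 3 does not, and for the G2 and mitosis genes the median of control replicate 3 (-0.54) lies among those of the TPR A libraries.

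The end of the mRNA bears on what poly(A)+ libraries see of these genes, so the stem-loop was looked for in their annotated transcripts (GENCODE release 44). It was searched as a stem of 6 base pairs that starts with GG, around a loop of 4 bases that starts with TTT, and it is shown here in capitals for the called genes, read from a transcript that ends a few bases after it.

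H2BC5: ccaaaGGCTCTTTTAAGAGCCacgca
H2AC6: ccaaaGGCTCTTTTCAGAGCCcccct
H2BC4: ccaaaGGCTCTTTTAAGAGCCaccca

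The loops differ by 1 base between H2AC6 and the H2B genes. Of the 22 tested genes 21 had the element in a transcript. In 9 genes there was a transcript that lacks it or runs more than 30 bases past it, and the 3 called genes were all among these 9. H2BC5 has a transcript of 789 nt without the element beside that of 486 nt with it, and H2AC6 has one of 1668 nt that runs 1128 bases past it. The 9 genes had a median log2 difference of 1.18 (0.34 to 1.75) with 6 at an unadjusted p of 0.05, and the 13 genes whose transcripts all end within 30 bases of the element had one of 0.92 (0.16 to 2.41) with 3. With that control culture left out the medians were 1.05 and 1.29, so the order of these groups turned. Which transcripts gave the reads cannot be told from sums per gene.

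The promoters of the called histone genes and of JUN are shown because their members are close together or share short motifs. The sequences are those of RefSeq (build GRCh38.p14), 250 bases before to 50 bases after the transcription start. Capitals mark the octamer ATTTGCAT, the CCAAT box CCAAT and the TATA box TATAAA in the histone genes, and CCAAT and the CRE-like element TGACNTCA in JUN, each on either strand. The matches do not overlap each other. H2AC6 lies at chr6:26123922-26124221 on the plus strand, H2BC5 at chr6:26157871-26158170 on the plus strand, where a second entry is shifted by a base, and JUN at chr1:58783998-58784297 on the minus strand.

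H2AC6: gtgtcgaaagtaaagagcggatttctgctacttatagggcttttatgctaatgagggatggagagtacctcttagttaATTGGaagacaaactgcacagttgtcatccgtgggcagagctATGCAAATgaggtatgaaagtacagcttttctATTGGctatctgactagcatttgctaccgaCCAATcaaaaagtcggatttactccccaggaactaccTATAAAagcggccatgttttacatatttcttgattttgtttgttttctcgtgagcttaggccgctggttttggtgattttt
H2BC5: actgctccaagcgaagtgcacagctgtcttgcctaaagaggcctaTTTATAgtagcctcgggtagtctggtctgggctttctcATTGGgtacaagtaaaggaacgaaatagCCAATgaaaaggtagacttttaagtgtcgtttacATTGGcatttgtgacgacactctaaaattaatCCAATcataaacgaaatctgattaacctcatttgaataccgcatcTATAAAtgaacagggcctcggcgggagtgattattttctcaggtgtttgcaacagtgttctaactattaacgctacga
JUN: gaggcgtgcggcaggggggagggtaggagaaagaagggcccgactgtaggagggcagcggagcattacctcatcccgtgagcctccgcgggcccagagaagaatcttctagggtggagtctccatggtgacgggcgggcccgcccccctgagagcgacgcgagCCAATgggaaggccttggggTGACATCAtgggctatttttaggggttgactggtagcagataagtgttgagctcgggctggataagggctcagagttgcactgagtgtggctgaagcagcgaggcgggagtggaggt

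The window of H2BC4 (chr6:26123877-26124176, minus strand) shares 255 bases with that of H2AC6, so these called genes are transcribed away from each other from 1 short region. The octamer is in the shared region and not in the window of H2BC5. Of the 22 tested histone genes 20 had a promoter in the table, and the octamer was in 10 of them (50%), the CCAAT box in 18 (90%) and the TATA box in 15 (75%). Of all 35116 promoters of the same length 1.77% held the octamer, 34.6% the CCAAT box, 11.5% the TATA box and 7.72% the CRE-like element. These are matches of letters, and binding was not measured.

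PARP1, NOB1 and CLNS1A fell and were called in both analyses. PARP1, which marks DNA breaks with poly(ADP-ribose), measured 105, 211 and 95.9 FPKM in control and 51.1, 44.6 and 54.1 FPKM in TPR A libraries (log2 difference -1.31 ± 0.22, SE, limma adjusted p = 0.00577). Control replicate 2 was the highest by far, and without its culture the PARP1 difference was -0.98 (limma adjusted p = 0.0188). NOB1, the nuclease that completes the small-subunit ribosomal RNA, measured 62.1, 101 and 63.4 FPKM in control and 35.0, 31.5 and 28.8 FPKM in TPR A libraries (-1.15 ± 0.19, SE, limma adjusted p = 0.00577). CLNS1A, which helps assemble spliceosomal ribonucleoproteins, fell from 116 ± 25.9 to 56.1 ± 3.83 FPKM (SD, n = 3; log2 difference -0.97). In all 3, as in every called fall, the lowest control value exceeded the highest TPR A value.

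PTPMT1, a mitochondrial phosphatase needed for cardiolipin, measured 64.0, 45.8 and 49.6 FPKM in control and 26.4, 21.4 and 17.5 FPKM in TPR A libraries (log2 difference -1.23 ± 0.27, SE, limma adjusted p = 0.0360). SLC25A13, the mitochondrial aspartate-glutamate carrier, measured 24.7, 33.0 and 23.6 FPKM and 13.6, 13.9 and 13.8 FPKM (-0.90 ± 0.16, SE, limma adjusted p = 0.00894). Of 72 nuclear-encoded subunit genes of the respiratory chain, all tested, none was called. Only 0.281% of all genes were called lower, so a call among 72 was not to be counted on. The median of the 72 was -0.12 with 24 above 0, and without the culture control replicate 2 it was 0.12 with 51 above 0.

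TMEM158, MUC1, TMEM71, WWC1 and SAPCD2 fell as well. TMEM158, a membrane protein first described as induced by RAS, measured 13.5, 5.81 and 17.5 FPKM in control and 2.28, 1.66 and 4.01 FPKM in TPR A libraries (log2 difference -2.06 ± 0.38, SE, limma adjusted p = 0.0126). Here control replicate 2 was the lowest control, and without its culture the difference was -2.56 (limma adjusted p = 5.1e-05). MUC1, a transmembrane mucin, fell from 7.48 ± 1.08 to 2.35 ± 0.701 FPKM (SD, n = 3; log2 difference -1.60), and TMEM71 from 2.31 ± 0.349 to 0.639 ± 0.206 FPKM (SD, n = 3; log2 difference -1.68). WWC1, a scaffold of the Hippo pathway, fell from 24.6 ± 3.24 to 10.5 ± 0.661 FPKM (SD, n = 3; log2 difference -1.16), and SAPCD2, a regulator of spindle orientation, from 19.99 ± 3.02 to 8.70 ± 0.294 FPKM (SD, n = 3; log2 difference -1.12).

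The complement genes C4A and C4B had differences of -2.47 and -2.54. C4B measured 13.2, 8.26 and 4.67 FPKM in control and 0.895, 1.43 and 1.48 FPKM in TPR A libraries (limma adjusted p = 0.0342). C4A went from 10.5 ± 6.91 to 1.47 ± 0.168 FPKM (SD, n = 3; limma adjusted p = 0.0434), and without the culture control replicate 2 it had a limma adjusted p of 0.0702 and was no longer called. C4A and C4B are near-identical copies, so how their fragments were divided is uncertain and they are best read as 1 signal.

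**Figure D3:**
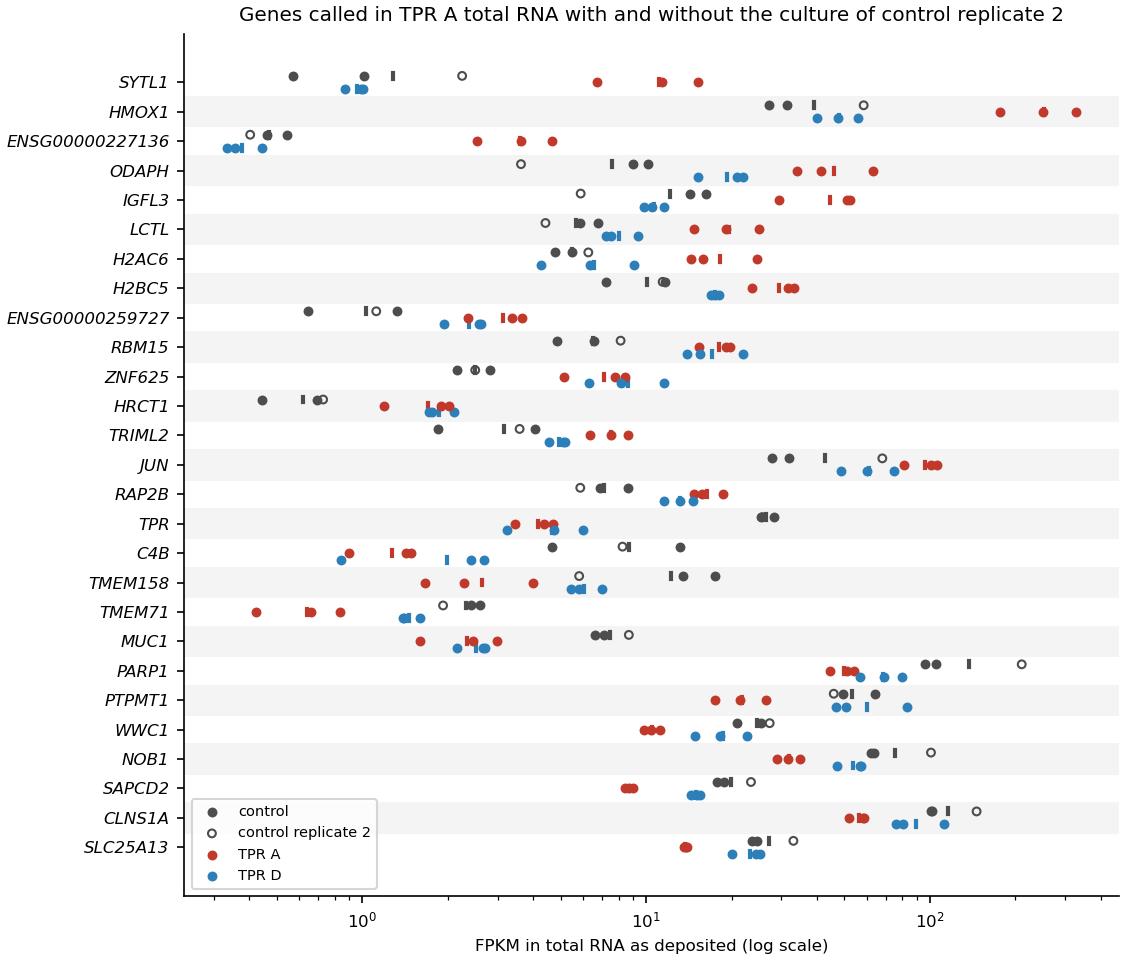
FPKM in each total RNA library on a log axis for the 15 largest rises and all 12 falls called with and without the culture labelled control replicate 2, with control (dark grey, replicate 2 open), TPR A (red) and TPR D (blue) libraries as points and group means as ticks. The 3 TPR A points lie outside the 3 control points in every row, as they do for every called gene. The TPR D points of SYTL1, IGFL3 and PTPMT1 lie within or beside the control range.

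A further 89 genes, 60 higher and 29 lower, were called only with the culture control replicate 2. All 89 had an unadjusted p under 0.05 without it. The largest rise among all calls was SPINK6, a protease inhibitor of skin, from 0.466, 0.334 and 0.750 FPKM to 6.49, 4.63 and 5.87 FPKM (log2 difference 3.32, limma adjusted p = 0.0134, and 0.0626 without the culture). HSD17B3, which makes testosterone, rose from 0.411 ± 0.259 to 3.41 ± 1.91 FPKM (SD, n = 3), the antisense lncRNA PDE7B-AS1 from 1.35 ± 1.02 to 5.07 ± 0.312 FPKM (SD, n = 3) and TEX37 from 0.381 ± 0.135 to 2.11 ± 1.08 FPKM (SD, n = 3). The log2 difference of PDE7B-AS1 was 2.34 with the culture and 1.39 without it. These 4 genes were under 3 FPKM in every control library. A gene and its antisense partner can be told apart only where strand was used in counting, which is not given in the sources used here.

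Abundant mRNAs stood among the falls of the 89. PTMA, the small acidic nuclear protein prothymosin alpha, measured 1275, 2068 and 798 FPKM in control and 584, 506 and 311 FPKM in TPR A libraries (log2 difference -1.44 ± 0.30, SE, limma adjusted p = 0.0256). Leaving out the culture control replicate 2, its difference was -1.13 (limma adjusted p = 0.147). TMX3, a thioredoxin-like enzyme of the endoplasmic reticulum, measured 36.9, 30.9 and 43.6 FPKM and 11.98, 11.6 and 13.2 FPKM (-1.52 ± 0.34, SE, limma adjusted p = 0.0370). For TMX3 control replicate 2 was the lowest control and the difference without its culture was -1.68 (limma adjusted p = 0.0769). CHERP (-1.28), IFRD2 (-1.27), FOXO4 (-1.40), NPB (-1.43) and TMEM238 (-1.57) were the other large falls of this group. In CHERP and IFRD2 control replicate 2 was the highest library, with 38.2 FPKM against 15.2 and 14.8 FPKM in the other controls for CHERP, and 132 against 75.2 and 69.8 FPKM for IFRD2, and without its culture the differences were -0.87 and -1.01. A further 10 genes were called only without the culture, among them PLAU, the urokinase gene, which had 78.1 ± 21.9 and 29.3 ± 2.56 FPKM in the control and TPR A libraries (SD, n = 3; log2 difference -1.32, limma adjusted p = 0.0693, and -1.53 with 0.000902 without the culture).

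In the list of 50 G2 and mitosis genes, all tested, 49 had differences below 0, the median log2 difference was -0.58, none was called, and 20 were lower at an unadjusted p of 0.05, where 5.84% of all genes were. Without the culture control replicate 2 the median was -0.33, 45 were lower and 2 were lower at that p, where 3.63% of all genes were. KIF20A, a kinesin of cytokinesis, measured 115 FPKM on average in control and 52.5 FPKM in TPR A libraries (log2 difference -0.98, limma adjusted p = 0.0603, and -0.63 without that culture). With the replicate block 4 of the 50 were called lower, where 1.02% of all genes were. These are named after their values were seen: KIF20A, AURKA, PLK1 and CDC25B (limma adjusted p = 0.0364, 0.0277, 0.0467 and 0.0392). The libraries overlapped as a group: the median distance from the control mean was 0.03, 0.47 and -0.54 in control replicates 1, 2 and 3 and -0.25, -0.58 and -0.81 in TPR A replicates 1, 2 and 3. Within replicate numbers the medians were -0.36, -0.97 and -0.30.

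The hnRNP genes, which encode abundant binders of nuclear RNA, had a median of -0.47 over 29 genes, 24 of them lower and 13 lower at an unadjusted p of 0.05, against 5.84% of all genes, with none called. HNRNPA1 (log2 difference -0.51), HNRNPM (-0.53) and HNRNPA2B1 (-0.52) were the most abundant and HNRNPU (-0.72, limma adjusted p = 0.188) had the lowest p. Without the culture control replicate 2 the median was -0.23, 23 were lower and none was at that p, and these 4 genes had differences of -0.27, -0.29, -0.27 and -0.35. Of 38 genes of ribosome assembly and the nucleolus 37 were lower, with a median of -0.46, and NOB1 alone was called, but without that culture the median was -0.12 with 29 lower. NPM1, NCL and FBL, which encode abundant nucleolar proteins, had differences of -0.22, -0.58 and -0.62 with that culture and -0.09, -0.23 and -0.09 without it, none called. In the proteasome list all 31 tested genes were below 0 with a median of -0.25, and without the culture 21 of 31 were above 0 with a median of 0.08. This list thus turned with 1 culture.

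The medians of several other lists also moved towards or past 0 without that culture, as the plot of list medians shows. S phase and DNA replication genes (51 tested) went from -0.32 to 0.00, nuclear pore genes outside the basket (29 tested) from -0.35 to -0.02, heat shock genes (20 tested) from -0.26 to 0.06, targets of ATF4 (31 tested) from -0.28 to 0.05, glycolysis and hypoxia genes (32 tested) from -0.18 to 0.11, mRNA export genes (31 tested) from -0.14 to 0.04, genes of nonsense-mediated decay and the nuclear exosome (29 tested) from -0.22 to 0.04, and genes of actin, tubulin and SRF or YAP targets (31 tested) from -0.33 to -0.01. None of these lists had a called gene with all cultures or without that one. With the replicate block CCNE1 of the S phase list (limma adjusted p = 0.0324) and SLC2A3 and PDK1 of the glycolysis and hypoxia list (limma adjusted p = 0.0467 and 0.0268) were among the genes called, and these are named after their values were seen. In the library labelled control total replicate 2 their medians stood 0.33 to 0.75 above the control mean. Among mRNA export genes, NXF1, the export receptor itself, had a difference of -0.79 (limma adjusted p = 0.163, and -0.53 without the culture), and in the nuclear pore NUP54 had one of -0.53 (limma adjusted p = 0.207). The housekeeping gene GAPDH had 3544, 7523 and 3569 FPKM in control and 3147, 3263 and 2617 FPKM in TPR A libraries (-0.55, limma adjusted p = 0.538, and -0.22 without the culture). The cytosolic ribosomal protein genes (80 tested, none called) had a median of -0.01 and, without the culture, of 0.12.

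**Figure D4:**
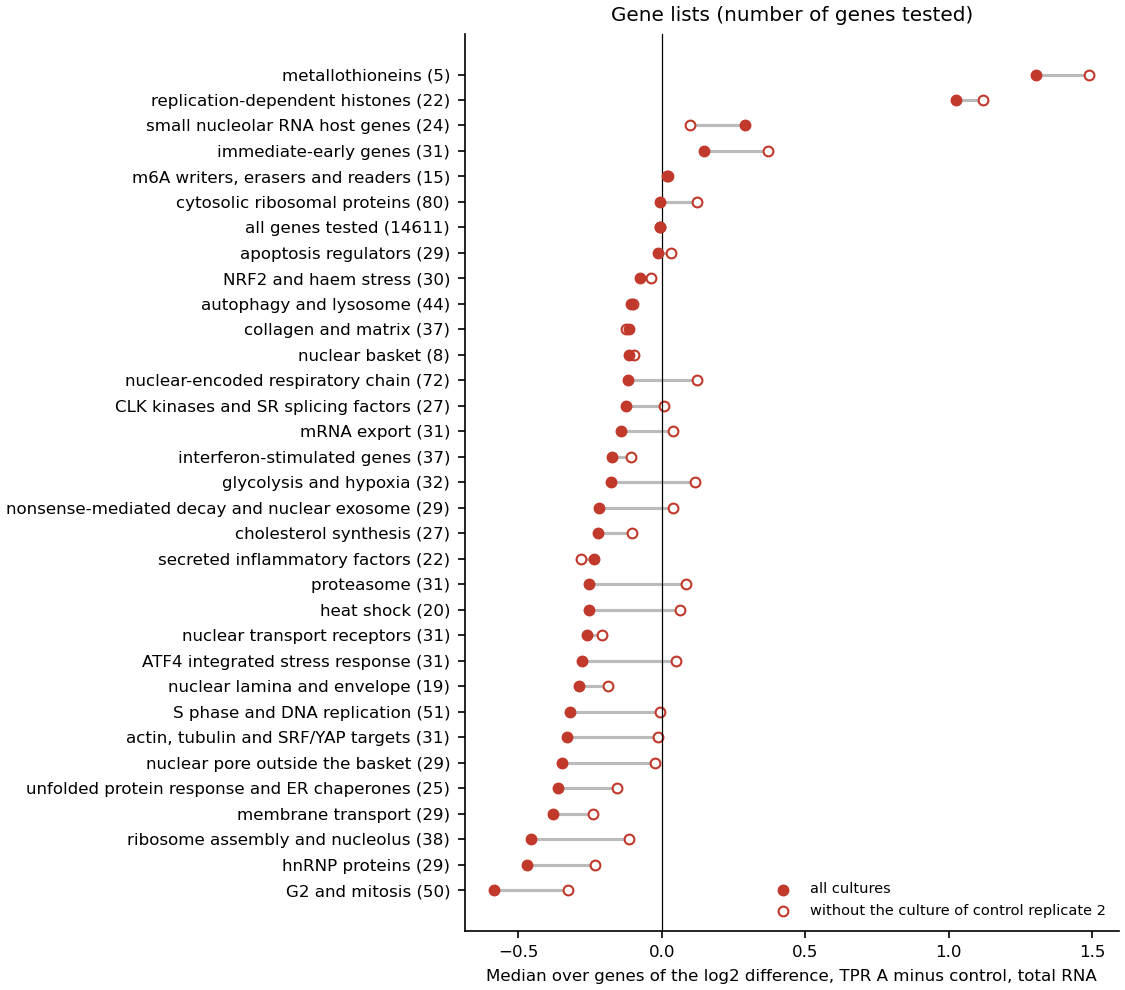
Median log2 difference between TPR A and control total RNA over the tested genes of each list reported, with all cultures (filled) and without the culture labelled control replicate 2 (open), and the number of genes tested in brackets. Histones and metallothioneins stand above 1 in both, the G2 and mitosis list is the lowest, and the proteasome list is among those that change side.

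Nuclear transport receptors and their regulators kept a lower median in both analyses, -0.26 and -0.21 over 31 genes, with 30 and 26 lower, and with the replicate block TNPO3, an import receptor named after its value was seen, was called beside RCC1 (limma adjusted p = 0.0410). RCC1, the nucleotide exchange factor that loads RAN on chromatin, was called, with 74.4, 148 and 77.2 FPKM in control and 38.7, 40.7 and 38.1 FPKM in TPR A libraries (log2 difference -1.21 ± 0.22, SE, limma adjusted p = 0.0111). Without the culture control replicate 2 its difference was -0.92 and its limma adjusted p 0.0702. In the unfolded protein response list (25 tested, median -0.36 and -0.15) CANX, the chaperone calnexin, was called at the edge of the threshold, with 265, 312 and 274 FPKM in control and 131, 89.3 and 135 FPKM in TPR A libraries (-1.22 ± 0.29, SE, limma adjusted p = 0.0492). Its difference without the culture was -1.18 (limma adjusted p = 0.210), and CALR and P4HB, other folding factors, had differences of -0.39 and -0.36, and of -0.12 and -0.23 without the culture, with no call. The nuclear lamina and envelope list (19 tested) had medians of -0.29 and -0.19, and LMNB2 had a difference of -0.69 (limma adjusted p = 0.214, and 0.0350 with the replicate block), which was -0.44 without the culture.

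Among apoptosis regulators (29 tested, median -0.01) CYCS, cytochrome c, had the lowest p (-1.04, limma adjusted p = 0.0581, and 0.0113 with the replicate block). Interferon-stimulated genes (37 tested) had medians of -0.17 and -0.11 and secreted inflammatory factors (22 tested) of -0.23 and -0.28, and in the latter list PLAU was called without the culture, and PLAU and TIMP2 were called with the replicate block (limma adjusted p = 0.0264 and 0.0113). Metallothioneins with their activator MTF1 (5 tested) had a median of 1.31 without a call. MT1E measured 55.6, 39.98 and 20.4 FPKM in control and 347, 381 and 16.8 FPKM in TPR A libraries, so that TPR A replicate 3 was below every control. MT2A was likewise highest in TPR A replicates 1 and 2 (328 and 629 FPKM) and lowest in replicate 3 (65.5 FPKM). Cholesterol synthesis (27 tested) had medians of -0.22 and -0.10 with and without the culture, autophagy and lysosome (44 tested) of -0.11 and -0.10, collagen and matrix (37 tested) of -0.11 and -0.12, membrane carriers (29 tested) of -0.38 and -0.24, and CLK kinases with SR splicing factors (27 tested) of -0.12 and 0.01. These 5 lists had no call with or without the culture, and with the replicate block SLC1A5 and SLC16A1 among the carriers were called (limma adjusted p = 0.0400 and 0.0315), named after their values were seen.

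By RNA class, the 1689 lncRNA genes had a median log2 difference of 0.28 with 15 called higher (0.888%, against 0.541% of all genes) and none lower, and the protein-coding genes one of -0.04. With the culture control replicate 2 left out the lncRNA median was 0.10 with 1 called higher (0.0592%). That share was below the 0.171% of all genes called higher in the same fit. MALAT1 and NEAT1, lncRNAs that stay in the nucleus, were 16.3 and 23.0 FPKM in the library labelled control total replicate 2, against 71.6 to 130 and 58.1 to 143 FPKM in the other 5 libraries. The nuclear libraries other than control replicate 2 held 16.3 to 40.1 and 21.7 to 67.1 FPKM, so MALAT1 was lower in them than in these 5. The differences of MALAT1 and NEAT1, 0.96 and 0.80, were 0.06 and 0.11 without the culture control replicate 2. The small nucleolar RNA host genes (24 tested) had medians of 0.29 and 0.10. NORAD, a cytoplasmic lncRNA, had 43.7, 25.8 and 51.6 FPKM in control and 24.3, 28.8 and 33.2 FPKM in TPR A libraries (-0.38, limma adjusted p = 0.687, and -0.70 without the culture). Protein-coding genes with 1 exon (201) had a median of 0.04 (0.11 without the culture), with 3 called higher (1.49%) and 1 lower (0.498%, against 0.281% of all genes), and those with more exons (12132) had one of -0.04. Genes were also divided into 5 groups of like size by their nuclear to cytoplasmic/ER ratio in control cultures 1 and 3, and the medians lay between -0.03 and 0.04.

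TPR D and TPR A share their control libraries, so their calls are not independent, and their values are given side by side for the genes called in both analyses above. TPR, RBM15, ZNF625, HRCT1, MUC1 and RAP2B also passed the threshold under TPR D, where 0.753% of all genes did. Without the culture control replicate 2, where 0.479% of all genes passed under TPR D, RAP2B lost that call (0.80, limma adjusted p = 0.114), and JUN (1.06, limma adjusted p = 0.0260) and TMEM158 (-1.29, limma adjusted p = 0.0316) gained one. RBM15 rose to 17.1 ± 4.22 FPKM under TPR D (SD, n = 3; log2 difference 1.46) and to 18.1 ± 2.34 FPKM under TPR A (SD, n = 3). MUC1 fell to 2.51 ± 0.313 and 2.35 ± 0.701 FPKM (SD, n = 3). JUN had 61.2 ± 13.2 FPKM under TPR D (SD, n = 3; log2 difference 0.70, limma adjusted p = 0.175 with all cultures), and C4B had a log2 difference of -2.03 (limma adjusted p = 0.0837).

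The direct comparison of TPR A with TPR D total libraries, which does not use the controls for its difference, called 41 of 14611 genes (0.281%), and 77 (0.527%) without the culture control replicate 2, which enters only through the estimate of the spread and the scaling. The genes named next had been called against control in the same TPR A libraries, which favours a difference from TPR D. Among the genes described here, HMOX1 was 47.8 ± 7.84 FPKM under TPR D (SD, n = 3) and 252 ± 75.5 FPKM under TPR A (SD, n = 3), a log2 difference of 2.35 ± 0.36 (SE, limma adjusted p = 0.00476). SYTL1 (3.32), SPINK6 (3.45), ENSG00000227136 (2.92), IGFL3 (1.99), H2AC6 (1.48) and LCTL (1.24) were higher with TPR A, and PTPMT1 (-1.45) and SLC25A13 (-0.75) were lower, all with limma adjusted p under 0.05. For SYTL1, SPINK6, IGFL3 and ENSG00000227136 the difference of TPR D from control was between -0.19 and 0.01, and between -0.47 and 0.32 without the culture control replicate 2. For HMOX1 it was 0.44 and 0.74, neither called. For TMX3, whose TPR D level was 30.1 ± 3.97 FPKM (SD, n = 3), the direct comparison did not pass (-1.30 ± 0.34, SE, limma adjusted p = 0.117), nor did it for H2BC5 (0.72 ± 0.23, SE, limma adjusted p = 0.258).

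The other fractions of these cultures gave further values for the same genes. HMOX1 had log2 differences of 3.503 in nuclear and 2.75 in cytoplasmic/ER RNA, SYTL1 of 3.90 and 2.87, and RBM15 of 1.39 and 1.501. TPR had -3.76 and -2.66. PTPMT1 had -1.43 and -1.73, TMEM158 -1.89 and -2.25, and NOB1 -0.81 and -1.10. H2AC6 had 1.79 and 1.35, and H2BC5 1.57 and 1.31. The cytoplasmic/ER difference of SYTL1 was not called (limma adjusted p = 0.0502, and 0.181 without the culture control replicate 2). Without that culture the PTPMT1 nuclear difference was -1.18 and the H2AC6 cytoplasmic/ER difference 1.32. Both lost their calls (limma adjusted p = 0.063 and 0.062). ZNF625 had 0.81 and 0.62 against 1.52 in total RNA, and 0.90 and 0.87 against 1.49 without the culture control replicate 2, and the difference between fractions was not tested. PARP1 had -0.68 and -0.80 against -1.31, and -0.81 and -0.80 against -0.98 without it. Only without that culture were both PARP1 fraction values called (limma adjusted p = 0.0455 and 0.0480). The nuclear library labelled control replicate 2 resembles a total library, so the nuclear values carry the same limit.

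**Figure D5:**
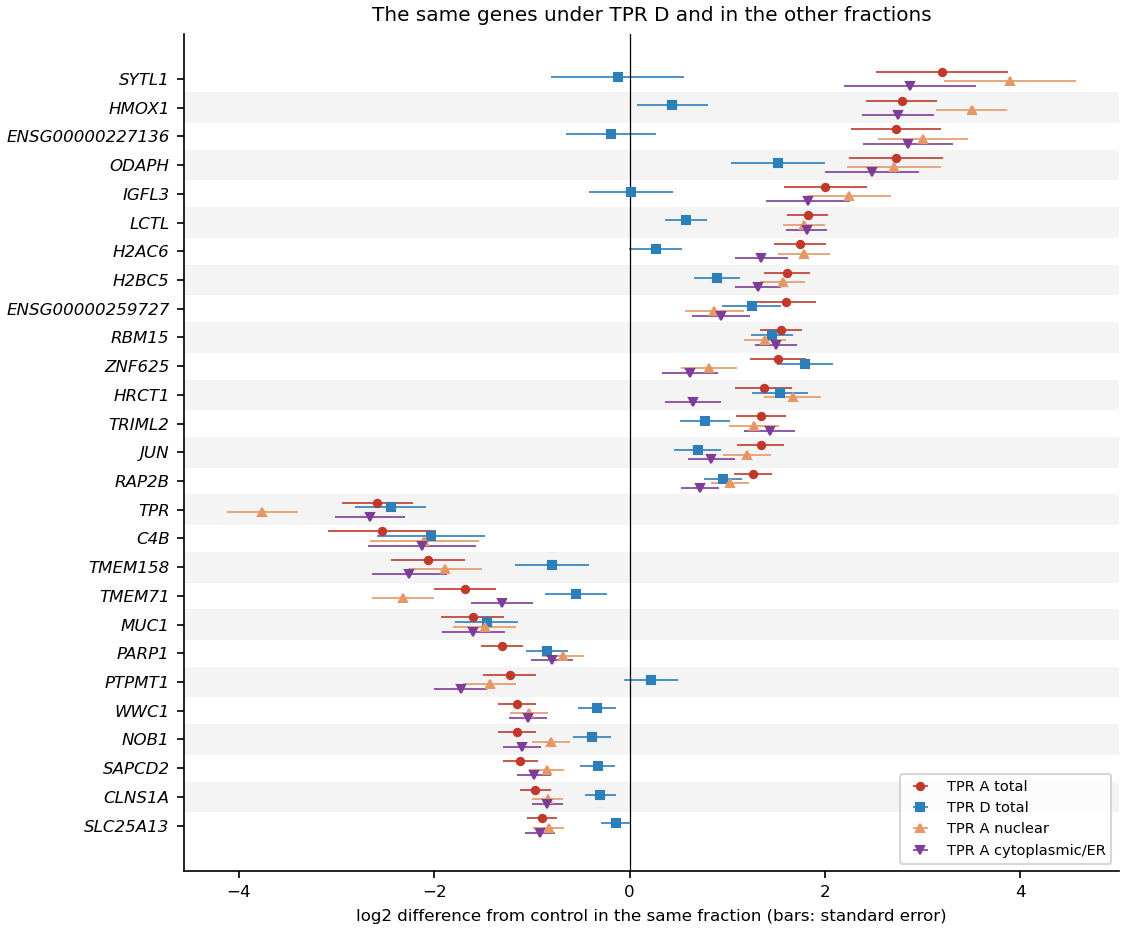
Log2 difference from control (x axis, bars are standard errors) for the 15 largest rises and all 12 falls called with and without the culture labelled control replicate 2, in TPR A total (circles), TPR D total (squares), TPR A nuclear (up triangles) and TPR A cytoplasmic/ER RNA (down triangles). SYTL1 and IGFL3 lie far from 0 in all TPR A fractions and within 1 standard error of 0 under TPR D (-0.12 and 0.01), HMOX1 lies at 2.79 and 0.44, and RBM15 and MUC1 lie together under both shRNAs.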

How the data were processed

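RNA Frac-Seq gave poly(A)+ libraries of nuclear, cytoplasmic/ER and total RNA from U2OS cultures. The authors quantified reads with Salmon on Gencode protein-coding and lncRNA transcripts, summed them to genes with Tximport and deposited FPKM, with hg19 as the genome build in the submitters' processing notes, which also name DESeq2. Counts were not used here, so no count model was run.

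IDs were matched to GENCODE release 44 on GRCh37 (32776 matched, 1688 not). Each library's FPKM were rescaled by a median-of-ratios size factor. Values of log2(FPKM + 0.1) from the 9 groups (27 libraries) entered 1 linear model in limma (version 3.58.1, R 4.3.3; eBayes with a mean-variance trend), so that the groups share 1 estimate of the spread. The fractions of a culture are not independent, but the model held no term for the culture. Fold changes are on this scale and are understated for low genes. P-values were Benjamini-Hochberg adjusted over all genes, with a threshold of 0.05. On simulated data with independent noise in each library the test recovered most of the added changes, with false calls somewhat above the share the threshold allows. The added changes were larger than the median called change, so recovery of smaller ones was not examined. Links between libraries of a culture and a library unlike its label were not simulated either. The study's methods call the replicates biological.

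Relative depth came from low FPKM of genes with 1 transcript, which fall on multiples of a single read (length minus 260 nt). Deviations of same-numbered control and TPR A total libraries from their group means correlated at 0.324, 0.184 and 0.137, each over 0.1, so the replicate number was also fitted as a block. The comparison, its members and the gene lists were chosen with earlier results of these data known. Genes named are TPR, NORAD, H1-1 and GAPDH, the 15 largest rises and falls called with and without the culture control replicate 2, the 8 largest rises and falls among the other calls, called list members, and the most abundant members and that with the lowest p of each list described. Not every list is reported here. Sequences are from RefSeq (GRCh38.p14) and GENCODE. Tables were made in Python with numpy, pandas and scipy, figures with matplotlib.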

Additional observations from a re-analysis of the deposited data

Results flagged for a closer look

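For 9 named genes the effect of TPR A in total RNA differed from that of TPR D. The difference itself was tested (limma over all genes, TPR A minus TPR D, 3 libraries each), and 41 of all 14611 genes (0.281%) passed. The 9 had been called against control in the same TPR A libraries, which favours a difference from TPR D. Their number was therefore not weighed against that share. Higher with TPR A were SPINK6 (log2 difference 3.45, limma adjusted p = 0.0145), SYTL1 (3.32, 0.0347), ENSG00000227136 (2.92, 0.00476), HMOX1 (2.35, 0.00476), IGFL3 (1.99, 0.0460), H2AC6 (1.48, 0.0152) and LCTL (1.24, 0.00978). Lower with TPR A were PTPMT1 (-1.45, 0.0169) and SLC25A13 (-0.75, 0.0386). All 9 also passed when the culture control replicate 2 was left out of the fit, with limma adjusted p between 0.00355 and 0.0172. Control libraries enter this test only through the spread and the scaling, and 77 of all genes (0.527%) passed it then. Passing again is therefore no separate check. Groups of 3 libraries were not examined for single outlying values.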

How the results depend on the processing

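The number of genes changed in total RNA, TPR A against control, was 120, and it was 1 with the 6 libraries compared alone, 2 with the 9 total libraries alone, 1 with replicates 2 and 3 alone, 25 with only the total library labelled control replicate 2 left out, 48 with a minimum mean of 5 FPKM, 199 with quantile normalization and 1202 with library weights, whose estimation stopped before it converged. Without 1 culture it was 4 to 168. With the replicate block it was 378, and 224 with the block and without the culture control replicate 2. As deposited, with pseudocounts of 1 and 0.01, with no minimum, with a minimum over the 6 libraries and without the trend it was 96 to 153. The 6-library, 9-library and 2-replicate fits have fewer samples from which to estimate the spread. The main fit counts the fractions of a culture as separate libraries with a common spread, and the part of this in the number of calls was not tested. For TPR mRNA in total RNA, TPR A against control, the call held at log2 differences of -2.36 to -2.80 in all alternatives but 1 (-2.68 to -2.46 without 1 culture): with replicates 2 and 3 alone it was -2.57 (limma adjusted p = 0.260).

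Of 1029 values for 50 named genes under the 21 alternatives none changed sign, 689 stayed on the same side of the threshold, 332 lost the call and 8 gained it. Most of these genes were named as calls in the same libraries, and the groups of a called gene do not overlap. The alternatives reuse or rescale these libraries, and the replicate block leaves the differences as they were. Keeping the sign is therefore no separate check of the calls. Of the 33 gene lists 17 kept the sign of their median under each alternative and 16 did not. Fitting values on a log scale with 3 libraries in a group limits what can be called for genes near 1 FPKM, where 1 kb is read 41.4 to 89.9 times.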
